A study of Mus musculus with 4 samples.

Results

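Stretches of the mouse genome where Ptf1a peaks stood in groups and c-Myc had no peak are described here. Neighbouring autosomal Ptf1a peaks were joined into a chain when the gap from the end of a peak to the start of the next was 12500 bp or less, and a chain was kept when it had 3 or more Ptf1a peaks and no Myc peak overlapped the span from its first start to its last end. This gave 721 Myc-free chains with 2646 Ptf1a peaks, out of 1450 such chains and of 17632 Ptf1a peaks in all, 17423 of them on the 19 autosomes. The members were thus selected on the called positions of both lists, and neither their grouping nor the absence of Myc is a finding. The Myc list was shorter than the Ptf1a list, with 5464 peaks, 5417 of them on the autosomes. Over all autosomal Ptf1a peaks, 13.5% overlapped a Myc peak. The lists come from chromatin immunoprecipitation with sequencing of pancreas of Ela1-myc mice aged 8 weeks. All mice carried the transgene, in which the elastase 1 promoter, active in acinar cells, drives Myc. DNA for the Ptf1a library was from 1 animal, and for the Myc library DNA of 3 animals was pooled. No list from mice without the transgene was analysed here. Acinar identity of the tissue could not be checked from peak positions.

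Ptf1a belongs to the basic helix-loop-helix proteins. In the adult pancreas it acts with an E protein and Rbpjl as the PTF1 complex, which binds near genes of digestive enzymes and keeps the acinar programme active. Groups of binding sites of a lineage factor within a short stretch are a known feature of strong enhancer regions of a tissue. c-Myc, also a basic helix-loop-helix protein, binds E-boxes together with Max, often at promoters, and promotes growth. By its title the study asked about the lowering of c-Myc as pre-acinar cells become acinar cells.

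Both factors were profiled in a single library each, which leaves every value without a replicate error. Peaks are not replicates of a condition, and no test was run. Intervals of medians are exact binomial 95% intervals from the order of the values and cover only the spread over peaks or chains. The score is the value that the authors' peak caller gave each peak. Its scale is not stated, and it begins at 50.01 in the Ptf1a list. The lists hold no reads, so their depth is unknown, and a span without a Myc peak may hold Myc binding too weak to be called. Positions are on mm9 and are counted from 1. Genes and sequence at these positions were not analysed here.

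Myc-free chains were small. Of the 721 chains, 439 had 3 peaks, 171 had 4 and 58 had 5. Only 53 had 6 or more, or 7.35% of them, against 163 of the 729 chains with a Myc peak (22.4%). The mean was 3.67 peaks a chain without and 4.51 with a Myc peak. The longest Myc-free chain by number of peaks had 12, while the largest chain with a Myc peak had 18.

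Over all sizes, 49.7% of autosomal chains were Myc-free, and this share was lower the more peaks a chain had. It was 57.4% for chains of 3, 52.0% for 4, 41.4% for 5, 36.6% for 6 and 20.8% for 7. Of the 47 chains with 9 or more peaks 4 were Myc-free (8.51%), and none of the 9 with 13 or more. Among pairs of Ptf1a peaks the share without a Myc peak was 75.6% (1480 of 1957), and among peaks standing alone 89.3% (6767 of 7578). A larger chain also tends to have a longer span in which a Myc peak can fall. These counts do not separate the number of peaks from the length searched, and the part of each was not tested. Spans at equal chain size are given below. The share was also lower in longer spans, from 59.4% of 128 chains under 5 kb to 51.3% of 230 chains of 15 to 20 kb and 25% of 120 chains of 30 kb or more.

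The share of Myc-free chains is also given by the score of the leading Ptf1a peak. In 5 equal parts of the 1450 chains by highest score, 62.8% were Myc-free in the lowest part (highest scores of 62.3 to 209.9) and 33.4% in the top part (1015 to 3196). Among chains of exactly 3 peaks the share was 62.8% in the lowest part (142 of 226), between 56.2% and 57.8% in the 3 parts between, and 46.7% in the top part (49 of 105).

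**Figure D1:**
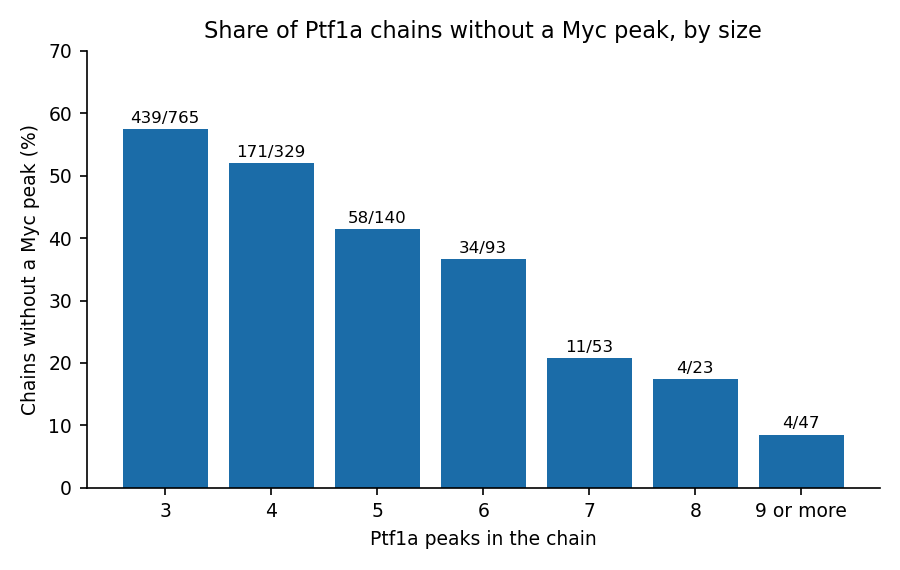
Share of Ptf1a chains without a Myc peak (vertical axis, percent) by the number of Ptf1a peaks in the chain (horizontal axis), with Myc-free chains over all chains above each bar. The share goes from 57.4% for chains of 3 peaks to 8.51% for chains of 9 or more.

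The Ptf1a peaks of Myc-free chains were of middling score. Their median was 122 (interval 117 to 128), with quartiles of 72.7 and 282 and a range from 50.01 to 2968.09. Peaks of chains with a Myc peak had a median of 144 (137 to 151), 21.6 higher, and Ptf1a peaks standing alone had one of 105 (102 to 108), 16.9 lower. For pairs it was 117 (113 to 121). Thus the members lay between solitary peaks and peaks of chains that held Myc.

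Within chains with a Myc peak, the Ptf1a peaks on Myc scored above those off it. The 1047 peaks on a Myc peak had a median score of 219 (199 to 246). The other 2238 peaks of the same chains, which touched no Myc peak, had a median of 122 (117 to 129). Pooled over chain sizes, the members' median differed from this by -0.025. The quartiles of the 2238 peaks, 75.0 and 274, were also close to those of the members. The members are whole chains, while the 2238 peaks are from chains with their peaks on Myc set aside. The median width was 521 bp (514 to 527) for the members. It was close to this, at 518 bp (509 to 528), for peaks off Myc in the other chains. Peaks on Myc were wider, with a median of 627 bp (613 to 638). Score and width went together within every class (Spearman's rho 0.66 over the members, across peaks of 1 library), and a wide peak has more room to touch a Myc peak. The part of width in the score of peaks on Myc was not tested.

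**Figure D2:**
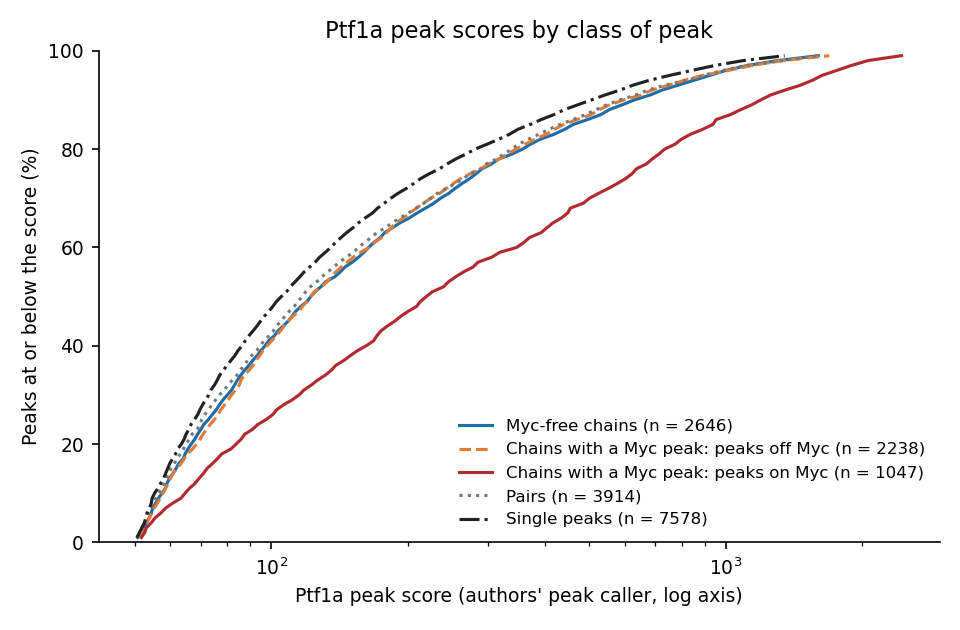
Cumulative share of Ptf1a peaks (vertical axis, percent) at or below a score (horizontal axis, log scale) for 5 sets of autosomal peaks, drawn from the 1st to the 99th percentile. Peaks of Myc-free chains (median 122) and peaks off Myc in the other chains (median 122) run together, peaks on Myc lie to the right (median 219) and single peaks to the left (median 105). Pairs and single peaks include those on a Myc peak.

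Among the members 1555 reached a score of 100 (58.8%), where 56.7% of all autosomal Ptf1a peaks did. The 90th percentile of the Ptf1a list, a score of 596, was reached by 10.8% of the members (287), close to the 10.1% of all autosomal peaks, against 26.5% of the peaks on Myc in the other chains. A score of 1000 or more was seen in 108 members (4.08%, background 3.94%), and a score below 60 in 350 (13.2%, background 14.5%). Of the members 73 were 1 kb wide or wider (2.76%, background 2.49%). By these counts the members resembled the list as a whole, which includes the peaks on Myc that the rule keeps out of the members. Among peaks off Myc, the score of 596 was reached by 10.0% in the other chains, 8.38% in pairs without a Myc peak and 6.80% of single peaks. A score of 1000 was reached by 4.16%, 2.70% and 1.99%, and a score of 100 by 59.1%, 56.9% and 51.5%. The members were thus close to peaks off Myc in the other chains and above those of Myc-free pairs and single peaks. Of the 100 highest-scoring autosomal peaks 14 were members, near the members' share of 15.2% of autosomal peaks. Chains with a Myc peak, with 18.9% of the peaks, held 46 of the 100, pairs held 23 and 17 stood alone. These other classes include peaks on Myc, which the rule keeps out of the members. None of the 14 autosomal peaks with a score of 3100 or more was a member, and 10 of them lay in chains with a Myc peak. Of those 10, 8 were themselves on a Myc peak and so could not be members. With so few peaks no conclusion is drawn.

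At equal chain size the picture was less even. In chains of 3 the median score over peaks was 121 without and 137 with a Myc peak, in chains of 4 it was 129 and 135, and in chains of 5 it was 118 and 149. With only the peaks off Myc taken from the other chains, the members were higher in chains of 3 (121 against 111) and of 4 (129 against 117) and lower in chains of 5 (118 against 139), of 6 (120.0 against 132) and of 7 (103 against 121). The 4 Myc-free chains of 8 peaks were higher (165 against 119.9) and the 4 with 9 or more lower (92.9 against 130.4). The equal medians over all sizes thus pool sizes at which the members scored higher with sizes at which they scored lower. The sets compared are unlike, since the members keep every peak of a chain and the other chains lose those on Myc (median 219). Setting a peak aside also takes a larger share of a small chain than of a large one. The part of this in the order at each size was not tested. Spans were close at equal size up to 5 peaks: the median was 9.78 kb without and 9.72 kb with a Myc peak for 3 peaks, 13.9 and 14.4 kb for 4, and 19.7 and 19.3 kb for 5. In chains of 6 it was 29.0 kb without and 24.5 kb with a Myc peak, and in larger chains it was shorter without: 24.9 and 27.0 kb for 7 peaks, 29.2 and 32.7 kb for 8, and 37.4 and 38.1 kb for 9 or more.

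Scores within a Myc-free chain were uneven. The highest score of a chain had a median of 404 (quartiles 209 and 769.8) and the lowest a median of 64.3. In 372 chains (51.6%) the highest score was more than 2 times the next, and in the median chain it made up 53.2% of the summed score. These figures were nearly the same in chains with a Myc peak (51.4% and 52.3%), although their highest scores were larger, with a median of 584. Every peak was at 100 or more in 116 Myc-free chains (16.1%) and in 106 chains with a Myc peak (14.5%). No peak reached 100 in 31 (4.30%) and 16 (2.19%) of them. The highest score was 1000 or more in 104 Myc-free chains (14.4%) and in 195 of those with a Myc peak (26.7%). Chains with a Myc peak also had more peaks, and a highest score depends on the number of peaks. At equal size the median highest score was lower in Myc-free chains of 3 to 7 peaks (348 against 408 for 3). It was also lower for 9 or more peaks, and higher for 8 (778 against 730.2).

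In chains of 3, the median score was 348 for the first, 117 for the second and 67.2 for the third by rank, against 408, 139.5 and 71.4 in chains of 3 with a Myc peak. Ranking alone sets a fall from first to last, so only the values at equal rank bear on a comparison. In chains of 5 the values were 538, 207, 118, 79.8 and 58.4 without and 599, 279, 138, 94.8 and 64.8 with a Myc peak. The medians were thus lower in Myc-free chains at each rank in chains of 3 and 5. In chains of 4 they were lower at every rank but the lowest, with 63.8 without and 61.6 with a Myc peak. The quartile ranges of both classes overlapped at every rank, as in the third of 3 (57.3 to 91.0 without, 57.4 to 95.3 with a Myc peak). Chains with a Myc peak are ranked here with their peaks on Myc, which the members cannot include.

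**Figure D3:**
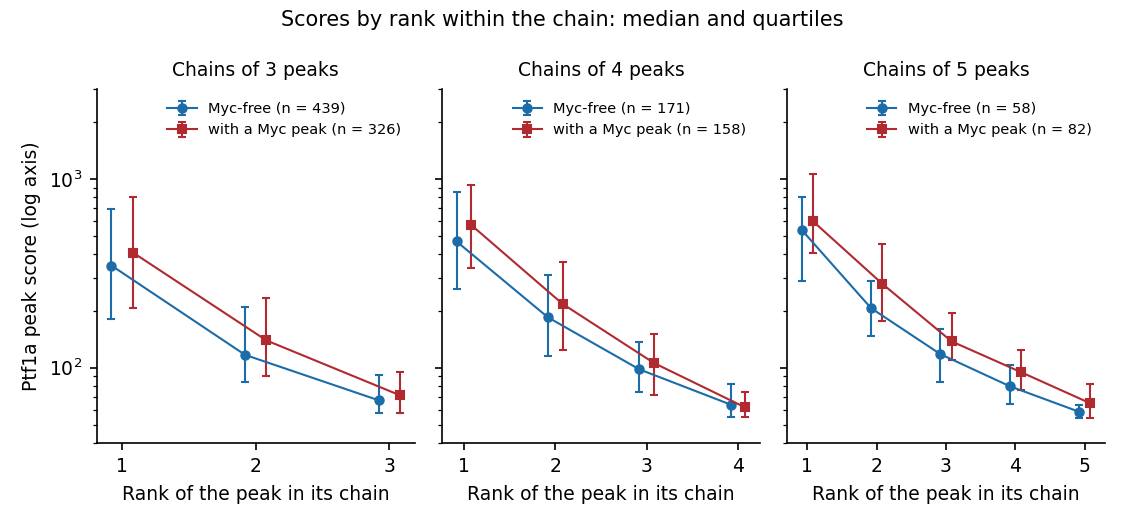
Ptf1a peak score (vertical axis, log scale) by rank within chains of 3, 4 and 5 peaks (horizontal axis), for Myc-free chains (circles) and chains with a Myc peak (squares). Points are medians and bars run from the lower to the upper quartile over chains: in chains of 3 the top peak has a median of 348 without and 408 with a Myc peak.

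The strongest peak had no fixed place in the chain. In the 439 Myc-free chains of 3 it was the first along the chromosome in 157, the middle one in 151 (34.4%) and the last in 131. In the 171 chains of 4 it was an inner peak in 82 (48.0%). The companions did not weaken with distance from it either. Their median score was 92.5 for the 294 within 2 kb, 92.8 for the 1026 at 2 to 10 kb and 88.7 for the 605 farther away. Companions were narrower than the leading peak, with a median width of 486 against 628 bp.

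Peaks of the same chain were no more alike in score than peaks of different chains. The intraclass correlation of log10 score over the 721 chains was -0.02, and neighbours in a chain had scores unrelated to each other (Spearman's rho -0.02 over 1925 neighbouring pairs, which share the library). The values in chains with a Myc peak were also -0.02 for both. A high-scoring Ptf1a peak thus stood beside low-scoring and high-scoring peaks alike.

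The spacing within chains was set at its upper end by the joining distance. Below it, the 1925 gaps had a median of 3339 bp (3123 to 3577) with quartiles of 1149 and 6706 bp. Gaps under 1 kb made up 22.8% (438) and gaps under 500 bp 13.9% (267), and 9.35% were over 10 kb. The smallest gap was 1 bp, and the fragments were of 300 to 500 bp. Whether peaks this close are separate sites was not tested. In chains with a Myc peak the median gap was 3190.5 bp (3016 to 3444) and 23.8% of gaps were under 1 kb. Peaks covered 15.1% of the summed span in Myc-free chains and 15.5% in the others. Myc-free chains had a median span of 11652 bp (11171 to 12454). The shortest, on chromosome 6 at 70165084 to 70167099, packed 3 peaks with scores of 156.21, 419.99 and 520.38 into 2.02 kb, with gaps of 236 and 103 bp.

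The Myc-free chain with the most peaks lay on chromosome 3 at 112947492 to 112972713, a span of 25.2 kb with 12 Ptf1a peaks. Its first 8 peaks stood in 9.72 kb, with gaps of 52 to 1218 bp, covered 68.4% of that stretch and scored from 60.69 to 366.66. The last 4 stood farther apart, with gaps of 2026 to 4871 bp, and scored 498.48, 1059.01, 84.07 and 334.91. The chain thus joined a dense run of wide, mostly weak peaks to a group of stronger, separate ones. Its nearest Myc peak was 2618 kb away.

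On chromosome 8 at 124807986 to 124845965, 11 Ptf1a peaks spread over 38.0 kb. A peak near the centre scored 1034.66, and the others from 59.46 to 289.66, with 6 of the 11 at 100 or more. This chain was Myc-free by a narrow margin: a Myc peak with a score of 141.89 lay 1.88 kb past its end.

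The longest Myc-free chain, on chromosome 2 at 79427540 to 79491651, held 10 peaks over 64.1 kb. Along the chromosome they scored 756.63, 164.9, 125.0, 272.35, 67.93, 1494.68, 50.35, 265.34, 293.64 and 146.94. Of these 8 reached 100, and the 2 strongest, the first and the sixth, stood 20.7 kb apart. The nearest Myc peak was 1643 kb away.

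The chain of 9 peaks on chromosome 9 at 2999921 to 3036679 stood apart from the others. It began with the first Ptf1a peak of the chromosome, whereas on every other autosome the first began at 3109789 or later. Its scores ran from 54.75 to 223.96 with 2 peaks at 100 or more, although it included the widest peak of all members, 2606 bp. The first Myc peak of chromosome 9 began at 7836986, so the distance of 4800.3 kb to Myc, the largest of any Myc-free chain, is measured towards its end only. Whether the sequence there is present in many copies was not tested.

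Of the other chains among the 10 with the most peaks, 4 had 8 peaks. On chromosome 7 at 134221999 to 134248478 the strong peaks, with scores of 1143.32 and 689.9, stood at the far end after 6 peaks between 58.68 and 192.64. On chromosome 19 at 10123133 to 10155147, 7 of 8 peaks reached 100 and the highest scored 675.06. The second chain on chromosome 19, at 4484962 to 4510679, had no strong peak, with scores from 72.87 to 288.42. On chromosome 18 at 74507615 to 74544975 the scores ran from 70.86 to 880.8.

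The last 2 places were shared by 11 chains of 7 peaks, and the 2 with the highest summed scores are given. On chromosome 3 at 95469861 to 95479224 they stood in 9.36 kb, and the scores along the chromosome were 276.88, 144.67, 444.92, 1350.5, 499.84, 76.05 and 441.87. Their median was 442. On chromosome 9 at 107193275 to 107227271 a pair of strong peaks (870.25 and 858.41) stood 15.7 kb apart in a span of 34.0 kb, and a Myc peak with a score of 62.09 lay 1.44 kb before its start.

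**Figure D4:**
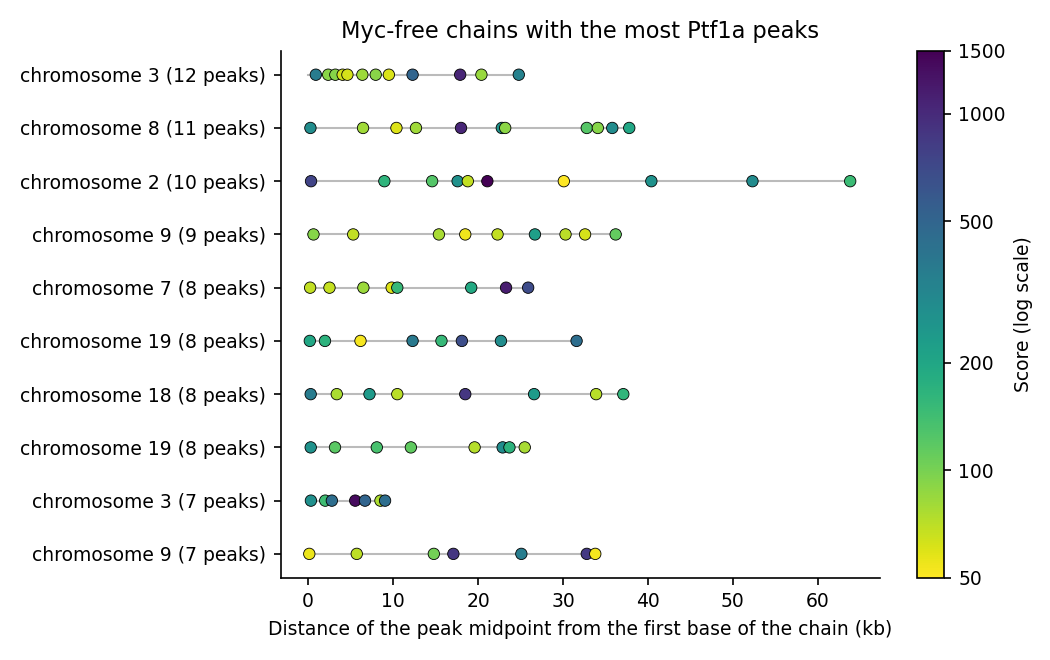
Myc-free chains with the most Ptf1a peaks, 10 in all and 1 per row: the 8 chains with 8 or more peaks, and of the 11 chains with 7 the 2 with the highest summed scores. Each point is a peak, placed by the distance of its midpoint from the first base of the chain (horizontal axis, kb) and coloured by its score (log scale). The chain of 12 peaks on chromosome 3 begins with a dense run of 8, and the chain of 10 on chromosome 2 reaches 64.1 kb.

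The highest-scoring member lay on chromosome 7 at 149152051 to 149152859 (score 2968.09, rank 17 in the Ptf1a list), at the end of a chain of 4 whose other scores were 414.23, 136.58 and 506.95. The next, on chromosome 8 at 108457389 to 108458176 (score 2611.56, rank 25), had the sharpest contrast with its company, at 75.45 and 51.45. Past the end of that span stood 3 Myc peaks within 5 kb, the nearest at 613 bp. On chromosome 12 at 117728979 to 117729951 a peak of 2362.04 closed a chain of 4 whose scores increased along the chromosome: 60.34, 227.3, 624.28 and 2362.04. The widest of the strongest members, 1473 bp, lay on chromosome 9 at 111740106 to 111741578 (score 2236.05), at the end of a span of 34.2 kb that a peak of 799.03 opened.

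The other strongest members were on chromosome 16 at 13330093 to 13330905 (score 2120.97), chromosome 10 at 93394582 to 93395387 (2097.49) and 83858482 to 83859422 (2057.12), and chromosome 19 at 40784400 to 40785089 (2086.46). A further peak stood on chromosome 17 at 43602395 to 43603439 (2083.72). The tenth by score was on chromosome 2 at 76925006 to 76925843 (1973.15). Beside the last, no peak of its chain scored over 83.53. The chains of the 10 strongest members had 3 to 5 peaks, as did those of 86.6% of all members, and the 10 ranked between 17 and 83 in the Ptf1a list.

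In a few chains more than a single peak was strong. The highest median scores were 928 on chromosome 1 at 38183823 to 38190275, from scores of 96.13, 927.53 and 999.89, and 893 on chromosome 3 at 20224906 to 20230033, from 1138.88, 893.33 and 127.17. The third was 792, on chromosome 6 at 117458646 to 117465372, from 217.35, 791.54 and 1396.59. All 3 were chains of 3 peaks.

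The median distance from the span to the nearest Myc peak was 68.2 kb (57.1 to 78.0) for the chains, 72.9 kb (67.7 to 80.0) for the pairs and 99.4 kb (95.1 to 105) for the solitary peaks. A Myc peak lay within 100 kb of 59.6% of the chains (430), 58.2% of the pairs and 50.2% of the solitary peaks. It lay within 10 kb of 60 chains (8.32%), 9.05% of the pairs and 6.78% of the solitary peaks. Within 1 kb the share was 0.832% for the chains (only 6 chains), 2.23% for the pairs and 1.57% for the solitary peaks. A Myc peak between the Ptf1a peaks of a chain or pair counts as inside the span and removes it. The shares at short range thus depend on how the span is defined. More than 1 Mb away were 30 chains (4.16%). These distances use the Myc positions that also selected the chains. Chains, pairs and solitary peaks with a Myc peak in the span were left out, and spans differ between the classes. The order of the medians thus depends in part on the rule, and no conclusion is drawn from it. The intervals cover only the spread over chains, pairs or peaks, and neighbouring chains can share the nearest Myc peak.

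**Figure D5:**
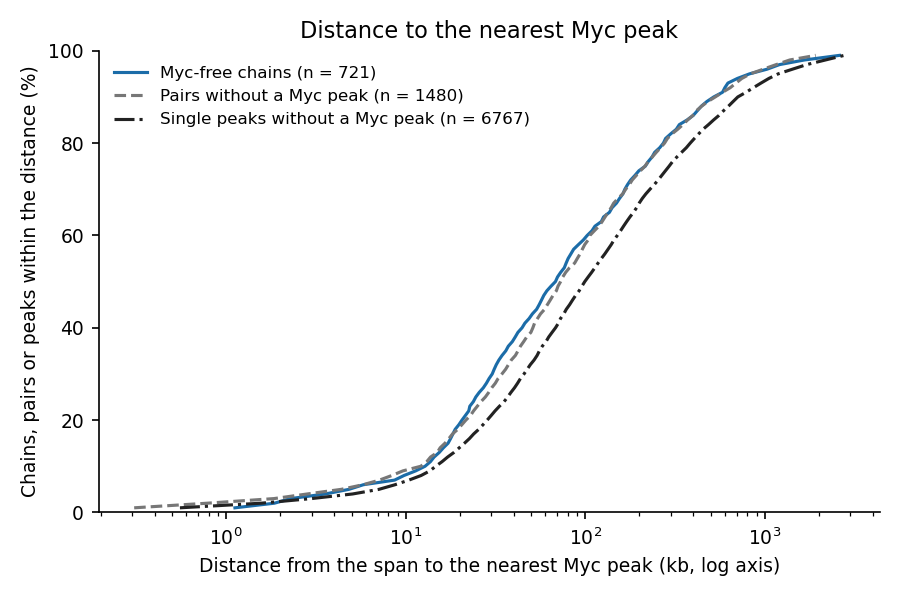
Cumulative share (vertical axis, percent) of Myc-free chains, Myc-free pairs and solitary Ptf1a peaks without Myc by distance to the nearest Myc peak (horizontal axis, kb, log scale). The lines of chains and pairs lie close together (medians 68.2 and 72.9 kb) and that of solitary peaks lies to the right (median 99.4 kb).

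By distance to Myc, the median score of the members was 127 (104 to 159.8) in the 60 chains within 10 kb of a Myc peak, 115 (109 to 124) at 10 to 50 kb, 121 (111 to 131) at 50 to 200 kb, 130.2 (117 to 143) at 200 to 1000 kb and 161 (115 to 194) in the 30 chains beyond. From 10 kb outward the medians were in rising order, but all 5 intervals share the values from 117 to 124.

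The nearest misses of the rule were chains with a Myc peak just outside. On chromosome 4 at 133215871 to 133226636, 4 Ptf1a peaks scored 489.79, 281.97, 52.33 and 167.97, and a Myc peak with a score of 65.9 lay 82 bp away. On chromosome 17 at 34777779 to 34784116 the distance was 219 bp and on chromosome 9 at 108198600 to 108208599 it was 478 bp, from Myc peaks with scores of 54.64 and 55.66. At the other end, besides the chain at the start of chromosome 9, were chains of 3 on chromosome 4 at 76086601 to 76099031 (4457 kb from Myc, scores 53.9, 59.87 and 246.97) and on chromosome 14 at 41909523 to 41918485 (4053 kb, scores 982.35, 109.07 and 157.77).

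Just on the other side of the rule stood 472 chains with exactly 1 Myc peak, 64.7% of those with any. Their Ptf1a peaks had a median score of 134, between the 122 of Myc-free chains and the 144 of all chains with a Myc peak. In 110 chains no Myc peak in the span scored 60 or more, so their exclusion rests on Myc peaks near the lowest score of that list, and in 41 the Myc peaks touched none of the Ptf1a peaks. At the lower limit of size, peaks of Myc-free chains of 3 had a median of 121 and those of Myc-free pairs 115. At the joining distance, 36 gaps within Myc-free chains were over 12 kb and 23 gaps above the joining distance but at most 13 kb bordered such a chain.

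Myc-free chains were found on all 19 autosomes, from 18 on chromosome 18 to 60 on chromosome 2. Among the chains of a chromosome, 38.4% on chromosome 15 (28 of 73) to 60.9% on chromosome 1 (53 of 87) were Myc-free. Members made up 11.0% of the Ptf1a peaks of chromosome 10 and 18.8% of those of chromosome 8. The median member score by chromosome ran from 94.2 on chromosome 9 to 148 on chromosome 14. Without the 9 members of the chain at its start, chromosome 9 had a median of 97.0. The next Ptf1a peak outside a Myc-free chain, which the rule places beyond the joining distance, lay at a median of 27.5 kb (quartiles 18.2 and 52.7). It was within 25 kb in 323 chains (44.8%) and beyond 200 kb in 21 (2.91%). The median was 24.8 kb for chains with a Myc peak, 33.1 kb for pairs and 40.9 kb for single peaks.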

How the data were processed

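Peak lists from 2 ChIP libraries of mouse pancreas were used. The tools named per the submitters' processing notes are MACS 1.4.1, BWA 0.5.9-r16, CASAVA 1.8 and FastQC 0.9.4, with the build mm9. Settings, peak threshold and the role of the input libraries (not analysed here) are not given in the sources used. The authors deposited, for each peak, its position and a score whose scale no header states.

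Peaks were joined and classed as described, with an overlap of 1 bp or more counted as contact. Autosomal Ptf1a peaks fell into 4 classes: Myc-free chains, chains with a Myc peak, pairs and single peaks. The chain step was run on simulated data with 560 chains of 3 or more peaks, and the total found in each class equalled the total simulated. Chains were not compared 1 by 1 with their simulated class. The chains and regions named are the 10 with the most peaks (ties broken by summed score, then position), the longest and shortest, the 3 with the highest median score, the 3 nearest to and the 3 farthest from Myc, and the 10 highest-scoring members. Members, lists and rules were chosen with earlier results of these data known. Promoter shares, fixed gene lists and motifs had been planned and were not run, since the gene table and sequences at hand are on GRCm38.p6 and coordinates were not converted. Python 3.11.15, numpy 2.4.6, pandas 2.3.3, scipy 1.17.1 and matplotlib 3.10.9 were used.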

Additional observations from a re-analysis of the deposited data

How the results depend on the processing

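With 7 alternatives, 69 values were recomputed; 46 stayed within 1.5 times the main count or within the main value's 95% interval, 23 moved, and no difference changed sign. With a joining distance of 5 kb there were 433 Myc-free chains with 1468 peaks, 52.9% of chains, with a median gap of 1661 bp and span of 6.04 kb. With 25 kb the gap was 5606 bp, the span 22.1 kb and the difference in median score from chains with a Myc peak -10.6. Chains of 4 or more gave 282 chains with 1329 peaks (41.2% Myc-free, span 16.5 kb). Widening the span by 10 kb left 45.6% Myc-free. With only Myc peaks scoring 100 or more there were 1134 chains with 4376 peaks (78.2%). With only Ptf1a peaks scoring 100 or more there were 264 chains with 877 peaks (43.8%), a median score of 232, a difference of -36.2, a width of 593 bp and a gap of 3790 bp; that limit itself raises scores. The other causes were not tested. The number of Myc-free chains thus depends on the limits, while both differences in median score kept their sign. No alternative left out the peaks on Myc, which the rule keeps out of the members. Without those peaks, the difference from chains with a Myc peak was -0.025 at the main setting and went both ways by chain size. With Ptf1a peaks of 100 or more, the difference from single peaks was 14.4 with an interval of -3.37 to 32.2, which includes 0. The interval of a difference has as half-width the root of the summed squares of the half-widths of both medians' intervals. Intervals of shares are Wilson intervals of a proportion. All of these cover only the spread over peaks or chains of single libraries and are no test. Depth is unknown, so weak Myc peaks may have been missed. No paired analysis was possible because there is only 1 library of either factor, and no replicate could be left out. Alternatives planned for promoters and motifs were not run.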
